A study of Temnothorax rugatulus with 32 samples.

Results

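The fat bodies of 8 old queens of the ant Temnothorax rugatulus were compared with the brains of the same 8 queens. These 16 libraries of the 32 in the series were chosen by age and tissue, and each fat body was paired with the brain that carries the same queen number. The 16 other libraries are the fat bodies and brains of 8 young queens, used here only where the tissue difference of old queens is set beside that of young queens. All queens came from the field. The labels give their age as old or young with no number, and they name no genotype and no treatment. RNA was extracted from each tissue of each queen on its own, and no label mentions pooling, so the spread reported here is a spread between queens.

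The insect fat body is a loose tissue around the body cavity that does the work of liver and adipose tissue. It stores lipid and glycogen, makes the sugars, carrier proteins and defence proteins that circulate in the haemolymph, handles toxins and nitrogen, and in queens supplies the ovary with yolk precursors. The brain is built mainly of neurons and glia and draws its fuel from the haemolymph. The design sets tissue-specific expression of old queens beside that of young ones, and the comparison asks which transcripts set the tissues of an old queen apart.

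Expression was measured as read counts for 228763 assembled contigs. Each old fat body had between 22798433 and 29614630 counts in total, and each old brain between 13861667 and 27434445. Levels are given as CPM, counts scaled to a common library size and corrected for library composition by the TMM method, and differences as log2 of fat body minus brain with a standard error, from edgeR's quasi-likelihood test with the queen as a block. An adjusted p (Benjamini-Hochberg over all contigs tested) under 0.05 counts as past the threshold. Protein descriptions exist for 1073 contigs, since the authors described only contigs that they had selected for a difference with age in these libraries, and 845 of the descriptions name a protein. Of the described contigs 703 were tested, 649 of them from the fat body age table alone. Lists of genes below therefore cover the part of each pathway that the authors selected and not the pathway as a whole.

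RNA in the old fat body was concentrated in few contigs. The 100 most abundant contigs of each library held 45.1% at the lowest, 53.6% at the median and 56.5% at the highest of all counts in fat bodies, against 17.2%, 19.4% and 23.2% in brains. The tissues did not overlap, and the share was higher in the fat body of 8 of 8 queens. It averaged 52.2% ± 3.85 in fat bodies and 19.7% ± 1.97 in brains (SD, n = 8 each), with p = 0.0078 in a two-sided exact permutation test of the paired differences, the smallest value that 8 pairs allow. In fat bodies 80.8 ± 42.8 contigs held 50% of the counts, against 1607 ± 180 in brains (SD, n = 8 each, exact permutation p = 0.0078). At an equal depth of 13861667 counts, 60806 ± 8476 contigs were detected in fat bodies and 82431 ± 3326 in brains (SD, n = 8 each, exact permutation p = 0.0078).

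**Figure D1:**
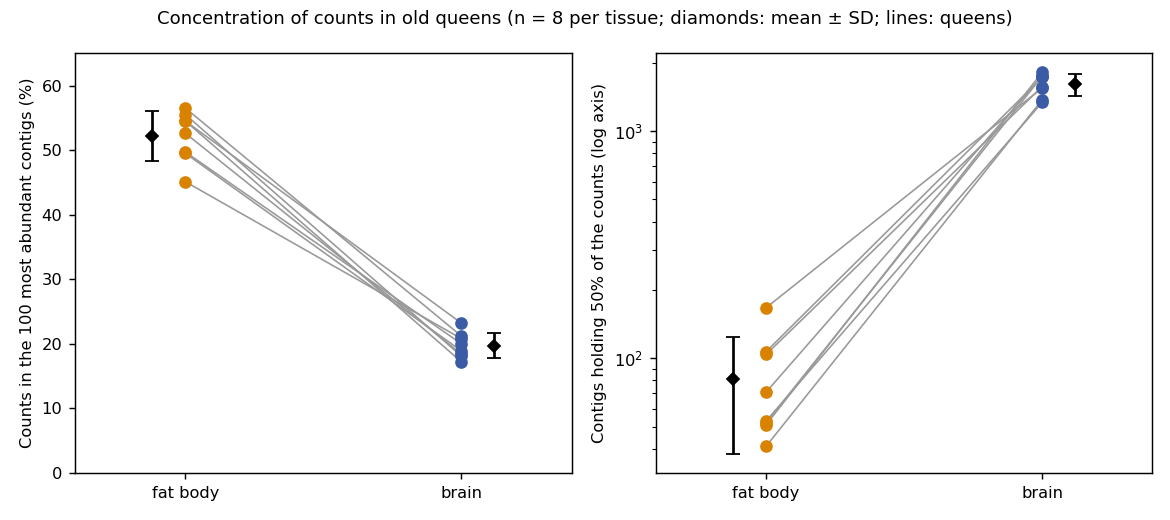
Share of all counts in the 100 most abundant contigs of each library in percent (left) and number of contigs that hold 50% of the counts on a log axis (right), in fat body and brain. Lines join the tissues of 1 queen, and diamonds with bars are mean ± SD; all 8 fat bodies lie above 45% and all 8 brains below 24% on the left.

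The most abundant contigs had no description. In old fat bodies the contig TR76576c5_g1_i1, 3993 bases long, held 51395 CPM at the lowest, 231105 at the median and 308313 at the highest, against 213, 514 and 1969 CPM in brains. The contig TR68929c11_g1_i1 held 48194 to 162297 CPM in fat bodies and 4699 to 24069 CPM in brains. On the brain side, TR76513c5_g1_i1 held 1216 to 6381 CPM in fat bodies and 8279 to 17973 CPM in brains, and TR46215c2_g1_i1 held 869 to 4848 CPM in fat bodies and 5615 to 10313 CPM in brains. None of these 4 contigs overlapped between tissues, and their log2 differences were 8.19 ± 0.61, 3.42 ± 0.43, -2.30 ± 0.37 and -1.63 ± 0.33 (SE, 8 pairs). The 100 contigs with the highest mean in fat bodies and the 100 with the highest mean in brains shared 36 contigs. Of the fat body's 100, 96 were higher and 3 lower in fat body, and 14 had a description. Of the brain's 100, 44 were higher and 47 lower in fat body, and 7 had a description. Each set was chosen by its level in the same libraries that were then compared, which favours the tissue it was chosen in. Over all tested contigs 26% were higher and 31.3% lower in fat body.

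Over all contigs, 34574 passed the count filter and 19816 of them (57.3%) differed between the tissues of old queens. Higher in fat body were 9001 (26%), and lower in fat body were 10815 (31.3%). The brain side held more of the large differences, with 2971 contigs at least 3 log2 units higher and 6146 at least 3 log2 units lower in fat body. All 8 fat bodies lay above all 8 brains for 4582 contigs (13.3%), and all 8 fat bodies lay below all 8 brains for 6784 (19.6%). Of the contigs past the threshold, 6908 were higher in the fat body of all 8 queens and 8882 lower in all 8, while 4026 had mixed signs among queens. There were 52 tested contigs with no count in any brain and 390 with no count in any fat body. All 52 were past the threshold as higher and all 390 as lower, and each passed the count filter through the other tissue alone. TMM gave lower factors to fat bodies, so an equal CPM stands for fewer counts there than in brains. The 52 and 390 are therefore not comparable as numbers of contigs absent from a tissue. The contigs higher in fat body held 84.6% of the mean CPM of fat bodies and 28.9% of that of brains, and those lower in fat body held 3.75% and 44.1%. Median contig length was 1871 bases for contigs higher, 1993 bases for contigs lower and 1902 bases for contigs not past the threshold.

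The split into higher and lower depends on how the libraries are scaled. TMM gave factors of 0.543 to 0.748 to fat bodies and 1.5 to 1.74 to brains, and it put the median of all tested contigs at a log2 difference of -0.15. Scaling by total counts alone moved that median by -1.41, to -1.57, and gave 3635 contigs higher and 21188 lower, so that 14.6% of contigs past the threshold were higher in fat body against 45.4% with TMM. Under all of the 4 scalings tried, 3635 contigs were higher and 10571 lower in fat body. Of the 9001 contigs higher with TMM, 2976 had a negative difference with total counts and 1266 of these were past the threshold as lower. Small differences in favour of the fat body are therefore relative to the TMM median. The authors' deposited table for old queens, made with their own processing, lists 38180 contigs that differ between tissues. Of these, 19453 did not pass the count filter used here and 18727 were tested. Past the threshold here were 17242 of those tested, 45.2% of the authors' list and 87% of the contigs past the threshold here. With direction read from the counts 0 of them had the opposite direction, but both results rest on the same counts, so this is no independent check.

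The libraries fell apart by tissue on the first axis of a multidimensional scaling, which held 21.2% of the variance. The scaling used, for each pair of libraries, the 500 contigs with the largest log2 differences between them. On the second axis, with 6.88%, both tissues of queens O-482, O-603 and O-796 lay on the opposite side from both tissues of the other 5 queens. Without these 3 queens 36802 contigs were tested, 7627 were higher and 11626 lower in fat body. Of the 19474 contigs past the threshold with all queens and tested again, 16551 had the same call without them and 0 the opposite one. The fat body of queen O-482 lay closest to the brains on the first axis. It held the highest fat body level for 6 of the 12 named contigs with the largest differences in favour of the brain, and 80711 contigs were detected in it at equal depth against 53263 to 61184 in the other fat bodies. The brain of queen O-796 held the highest brain level for 6 of the 12 named contigs with the largest differences in favour of the fat body. The part of these libraries in the size of the differences was not tested beyond the counts given.

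**Figure D2:**
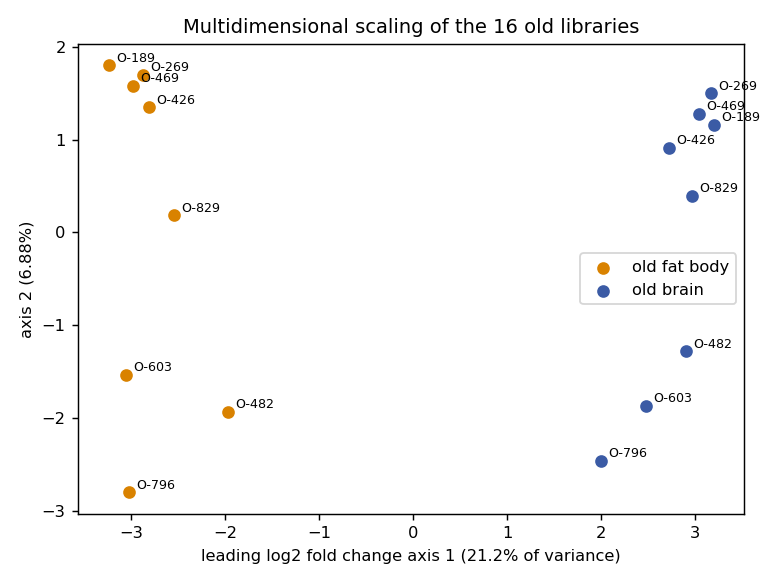
Multidimensional scaling of the 16 old libraries, with the first axis of leading log2 fold change across the page and the second up the page, labelled by queen number. Fat bodies lie at -1.97 or below on the first axis and brains at 2 or above, and queens O-482, O-603 and O-796 lie below 0 on the second axis in both tissues.

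Enzymes of lipid handling were among the largest differences. The patterns for lipid metabolism matched 36 described contigs, 18 of which were tested, with 14 higher and 3 lower in fat body and a median log2 difference of 3.95. For comparison, 58% of the 703 described contigs were higher and 14.4% lower, with a median of 0.88. Contigs for fatty acyl-CoA reductases, which turn fatty acyl-CoA into the fatty alcohols of waxes and cuticular lipids, led the list. A contig for fatty acyl-CoA reductase 1-like held 12.7, 19.9 and 53.6 CPM (lowest, median, highest) in fat bodies, against 0, 0 and 0.0497 CPM in brains. No brain came near any fat body, and 5 of 8 brains had no count, so that 4 counts over all brains stood against 3493 over all fat bodies. The pooled ratio was 1945, with a 95% exact interval of 759 to 7143 that covers counting error only, and the fitted difference was 10.53 ± 0.61 (adjusted p = 3e-06, edgeR). A second reductase, putative fatty acyl-CoA reductase CG5065, held 6.48, 13.4 and 30.7 CPM in fat bodies and no more than 0.0255 CPM in any brain, with 2195 counts against 2. Its pooled ratio was 2445 with an interval of 676 to 20199. These reductases also serve as markers of oenocytes, the lipid-secreting cells that lie within or beside the fat body of insects. The oenocyte markers had 7 of 14 described contigs tested, 6 higher and 1 lower, and their summed level was 65.9 to 275 CPM in fat bodies against 16.2 to 38 CPM in brains. Whether oenocytes were part of the dissected tissue was not tested.

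The other lipid contigs ran from strongly higher to lower. Fatty acid synthase, which builds palmitate, was higher by 7.78 ± 0.94 at a low level, with means of 3.79 CPM in fat bodies and 0.019 CPM in brains, and acyl-CoA Delta(11) desaturase-like was higher by 5.29 ± 1.16. Monoacylglycerol lipase ABHD12, sphingomyelin phosphodiesterase and an acyl-CoA synthetase were higher in fat body by 4.02 ± 0.27, 2.09 ± 0.23 and 3.89 ± 0.26 log2 units. The more abundant of 2 tested contigs for alpha-tocopherol transfer protein-like, named for a vitamin E carrier of mammals, held 5.67 to 17.9 CPM in fat bodies and 0 to 0.0974 CPM in brains. The other contig of that description was at -1.46 and not past the threshold. Phosphatidate phosphatase LPIN3, a lipin that makes diacylglycerol for fat storage and membranes, was lower in fat body. It held 22.5, 29.7 and 69.3 CPM in fat bodies and 124, 129 and 132 CPM in brains, with no overlap and a difference of -1.92 ± 0.21 (adjusted p = 6.4e-05, edgeR). The elongase of very long chain fatty acids, protein 4-like, was also lower, at -2.32 ± 0.57, but the tissues overlapped and 1 of 8 queens had a slightly higher fat body. Without queens O-482, O-603 and O-796 this contig, described as elongation of very long chain fatty acids protein 4-like, was at -1.77 and not past the threshold (adjusted p = 0.084, edgeR). The lipid-linked oxysterol-binding protein-related protein 11 was lower by a small margin, at -0.70 ± 0.15, and with no count filter it was not past the threshold (adjusted p = 0.073, edgeR).

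Sugar metabolism and its transport were higher in fat body in every case past the threshold. Of 8 tested contigs for carbohydrate metabolism 6 were higher and 0 lower, with a median difference of 5.21 log2 units. Among all described contigs 58% were higher and 14.4% lower, with a median of 0.88. The 8 contigs carried 7 descriptions, as 2 were maltase 2-like, and the 2 not past the threshold had best hits outside Hymenoptera. Phosphoenolpyruvate carboxykinase, the enzyme that opens the route from amino acids and lactate to glucose, held 265, 1086 and 1943 CPM in fat bodies and 0.0863, 3.29 and 162 CPM in brains. The fat bodies lay above the brains in all queens, but the brains themselves spread widely, from 0.0863 CPM in queen O-269 to 162 CPM in queen O-796. The difference was 7.57 ± 1.32 (adjusted p = 0.00089, edgeR). A maltase 2-like contig, which codes for a sugar-cleaving enzyme also used in the gut, held 52.1 to 1167 CPM in fat bodies and 0 to 9.69 CPM in brains. The trehalose transporter Tret1-2, which moves the main blood sugar of insects across cell membranes, held 142, 219 and 1442 CPM in fat bodies and 4.02, 5.42 and 13 CPM in brains, a difference of 5.80 ± 0.49. Lysosomal alpha-glucosidase-like, which breaks down glycogen in lysosomes, differed less, by 1.98 ± 0.16.

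Contigs matched for amino acid and nucleotide metabolism were nearly all higher in fat body with TMM scaling. Of 18 tested contigs 16 were higher and 2 lower, with a median of 2.60. Among all described contigs 58% were higher and 14.4% lower, with a median of 0.88. Under total-count scaling 11 of the 18 were higher and 5 lower, with a median of 1.18. The 2 contigs lower with TMM scaling do not metabolise amino acids: a glycine transporter and a glycine-rich cell wall structural protein 1.0-like that the word pattern also caught. On the higher side it caught proline-rich protein PRCC, at 0.41 ± 0.13, and a tRNA methylthiotransferase, at 0.53 ± 0.17. The 18 contigs carried 12 descriptions, with several contigs each for purine nucleoside phosphorylase and S-adenosylmethionine synthase. Protein henna, the phenylalanine hydroxylase of Drosophila that makes tyrosine, held 87.7, 117 and 326 CPM in fat bodies and 1.68, 5.81 and 7.09 CPM in brains. There was no overlap, and the difference was 5.01 ± 0.24 (adjusted p = 1.8e-06, edgeR). A kynurenine/alpha-aminoadipate aminotransferase, which acts on breakdown products of tryptophan and lysine, was higher by 6.71 ± 0.41. The most abundant contig for S-adenosylmethionine synthase, which makes the methyl donor of the cell, held 529, 1201 and 2731 CPM in fat bodies and 56.5, 79.6 and 111 CPM in brains, a difference of 3.98 ± 0.26. All 4 contigs with that description were higher in fat body, by 0.53 to 4.29 log2 units, and the smallest of these differences had overlapping tissues. Purine nucleoside phosphorylase, which salvages purine bases, was higher by 2.45 ± 0.28 in its most abundant contig.

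Secreted and circulating proteins marked the fat body. Transferrin, the iron carrier of the haemolymph, held 1010, 4977 and 8879 CPM in fat bodies and 127, 259 and 413 CPM in brains. All fat bodies lay above all brains, and the difference was 4.03 ± 0.47 (adjusted p = 8.8e-05, edgeR). Among the contigs with a description none was named vitellogenin or hexamerin, so the classical storage and yolk proteins of the fat body are not covered. Of the 4 tested contigs for storage and carrier proteins 3 were higher and 1 lower, and the lower one was antichymotrypsin-2-like, a protease inhibitor. Among all described contigs 58% were higher and 14.4% lower. The pheromone-binding protein Gp-9-like, a small odorant-binding protein known from fire ants, held 4.32 to 30.7 CPM in fat bodies and 0 to 0.753 CPM in brains. Icarapin-like, related to a carbohydrate-rich venom protein of the honeybee, was the most abundant named contig of both tissues, with 4152, 5095 and 11388 CPM in fat bodies and 723, 954 and 2656 CPM in brains. Its level per kilobase of contig was 3495 CPM in fat bodies and 715 CPM in brains, and the difference was 2.35 ± 0.19. A venom dipeptidyl peptidase 4 was higher in fat body by 5.48 ± 0.19, at 112 to 298 CPM in fat bodies and 2.51 to 7.98 CPM in brains.

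The few defence genes that were described and tested were higher in fat body. All 6 tested contigs for immunity were higher, with a median difference of 3.71. Among all described contigs 58% were higher and 14.4% lower, with a median of 0.88. Beta-1,3-glucan-binding protein-like, a recognition protein for fungal and bacterial cell walls, held 992, 2668 and 5392 CPM in fat bodies and 30.6, 33.7 and 79.9 CPM in brains. The tissues stood far apart in every queen, and the difference was 5.92 ± 0.30 (adjusted p = 1.9e-06, edgeR). The protease snake-like, a member of the clip-domain proteases that start defence cascades in Drosophila, was higher by 5.78 ± 0.52. Toll-like receptor 3 was higher by 3.21 ± 0.49 and pellino, an adaptor of Toll signalling in Drosophila, by 1.73 ± 0.17. Protein croquemort-like, a scavenger receptor that marks haemocytes in Drosophila, held 245 to 476 CPM in fat bodies and 63.6 to 111 CPM in brains, a difference of 2.07 ± 0.14. Protease inhibitors went in both directions. Kunitz-type protease inhibitor AFAPI-I-like held 465, 750 and 1210 CPM in fat bodies and 1.75, 2.53 and 11 CPM in brains. Alpha-2-macroglobulin-like protein 1, a trap for proteases, was higher by 2.12 ± 0.21, and antichymotrypsin-2-like was lower at -1.20 ± 0.18 (adjusted p = 0.00035, edgeR).

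Other enzymes with large differences in favour of the fat body stood outside the lists. The prostaglandin-degrading 15-hydroxyprostaglandin dehydrogenase [NAD(+)]-like held 418, 879 and 3737 CPM in fat bodies and 1.32, 5.65 and 30.5 CPM in brains, with no overlap and a difference of 7.29 ± 0.41 (adjusted p = 2.5e-06, edgeR). Lysosomal Pro-X carboxypeptidase, which trims peptides after proline, held 71 to 306 CPM in fat bodies and 0 to 3.24 CPM in brains, and 4 of 8 brains had no count. Tetratricopeptide repeat protein 17 held 18.4 to 53.7 CPM in fat bodies. It had no count in 5 brains but 11.5 CPM in the brain of queen O-603. Selenium-binding protein 1-A, among the most abundant named contigs of the fat body, held 1097 to 2050 CPM in fat bodies and 29.4 to 91.4 CPM in brains, a difference of 4.82 ± 0.31. Bax inhibitor 1, a membrane protein that restrains cell death, was higher by 1.68 ± 0.17 with TMM scaling and by 0.26 (adjusted p = 0.13, edgeR) with total counts.

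Membrane transporters included large differences in both directions. Of 31 tested contigs 18 were higher, a share close to the 58% of all described contigs, and 7 were lower in fat body (all described contigs 14.4%), with a median of 1.23 that became -0.19 under total-count scaling. Monocarboxylate transporter 12 held 108, 242 and 437 CPM in fat bodies and 0.56, 1.29 and 2.58 CPM in brains. The most abundant of 4 tested contigs for organic cation transporter protein-like held 16.4 to 188 CPM in fat bodies and 0 to 2.08 CPM in brains. Of these 4 contigs 3 were higher, and 1 was at -0.76 ± 0.73 and not past the threshold (adjusted p = 0.4, edgeR). The amino acid transporter b(0,+)-type had medians of 75.7 CPM in fat bodies and 0.797 CPM in brains, with no overlap. The brain had carriers of its own. Cationic amino acid transporter 2 held 0.113, 0.657 and 3.79 CPM in fat bodies and 16.8, 40.4 and 58.9 CPM in brains, a difference of -5.67 ± 0.56 (adjusted p = 3.7e-05, edgeR). The glycine transporter 1, which clears glycine outside cells and is named for its need of sodium and chloride, held 0 to 3.55 CPM in fat bodies and 7.8 to 16.2 CPM in brains. Excitatory amino acid transporter-like, a glutamate carrier used as a glial marker, was lower in fat body by a smaller margin, at -1.18 ± 0.19. Band 3 anion transport protein, an exchanger of chloride and bicarbonate, held 1.77 to 9.69 CPM in fat bodies and 30.5 to 47.3 CPM in brains (adjusted p = 3.5e-05, edgeR).

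In the list for detoxification 13 of 23 tested contigs were higher and 5 lower in fat body, close to the share among all described contigs (58% higher, 14.4% lower), and their median of 1.04 became -0.38 under total-count scaling. Carbohydrate sulfotransferase 11-like, which adds sulphate to sugar chains, was higher by 6.27 ± 0.25, at 375 to 1162 CPM in fat bodies and 6.2 to 16 CPM in brains. Cytochrome P450 6k1-like, of a family that oxidises toxins, was higher by 6.52 ± 0.55. The ABC transporter ABCG1-like, a lipid pump of the ATP-binding cassette family, was higher by 4.86 ± 0.24. The contigs of a single description did not act alike: of 7 tested contigs described as cytochrome P450 9e2-like, 1 was higher, 3 lower and the differences ran from -5.21 to 2.45. The word pattern also caught a cAMP-specific phosphodiesterase, which degrades a second messenger and was lower in fat body at -1.99 ± 0.38, with 1 of 8 queens the other way. On the higher side it caught 2 contigs of sphingomyelin phosphodiesterase, at 2.09 ± 0.23 and 1.89 ± 0.33, and protein phosphatase methylesterase 1, at 0.95 ± 0.18. It also caught the sulfotransferases of sugar chains, carbohydrate sulfotransferase 11-like and 5-like, the latter at 4.26 ± 0.55. The counts and the median are therefore those of the matched contigs and not of detoxification enzymes alone.

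Some genes of synapses and excitable membranes were lower in fat body, while others, given further below, were not. Complexin, a regulator of the fusion of synaptic vesicles whose best hit came from the stink bug Halyomorpha halys, held 0.42, 1.01 and 6.07 CPM in fat bodies and 37.9, 94.7 and 137 CPM in brains. The tissues did not overlap, and the difference was -6.08 ± 0.52 (adjusted p = 1.8e-05, edgeR). The highest complexin level among fat bodies was in queen O-482. A nicotinic receptor subunit, alpha-7-like, a receptor for the main excitatory transmitter of insect brains, had no count in 7 of 8 fat bodies and 3.79 to 8.96 CPM in brains. Over all libraries it had 9 counts in fat bodies and 1623 in brains. The voltage-dependent calcium channel type A, which triggers transmitter release, held 0.127, 0.3 and 2.57 CPM in fat bodies and 3.49, 11 and 28.4 CPM in brains, a difference of -4.89 ± 0.62. Protein quiver, which in Drosophila promotes sleep by acting on potassium channels, held 0.316 to 3.28 CPM in fat bodies and 16.2 to 45.1 CPM in brains. Probable G-protein coupled receptor 158, an orphan receptor of mammalian brain, held 2.27, 4.4 and 8.7 CPM in fat bodies and 70.7, 75.9 and 87.8 CPM in brains, so the brains were very even. Its difference was -4.06 ± 0.25 (adjusted p = 3.7e-06, edgeR).

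Not every gene with a neuronal name lay on the brain side. Of 14 tested contigs in the list for synapses and neuronal signalling 8 were higher in fat body, close to the 58% of all described contigs, and 4 lower. Those higher include choline transporter-like protein 1, the vesicle membrane protein VAT-1 homolog and the survival motor neuron protein, which are known from many tissues, and the median of 1.04 became -0.38 under total-count scaling. Neuromedin-U receptor 2-like, a peptide hormone receptor, held 7.81 to 78.7 CPM in fat bodies and 0 to 2.36 CPM in brains. Neuroligin-1-like, a synaptic adhesion protein, held 81.8 to 174 CPM in fat bodies and 83 to 135 CPM in brains, and its difference of 0.12 ± 0.17 was not past the threshold (adjusted p = 0.58, edgeR). Of the 3 neuron markers that were described, 2 were lower in fat body and neuroligin was the third. Prohormone-3, a neuropeptide precursor of the honeybee, stood among the 8 most abundant named contigs of the brain, yet held 157, 563 and 872 CPM in fat bodies and 409, 493 and 624 CPM in brains. The tissues overlapped fully and the difference of -0.26 ± 0.36 was not past the threshold with TMM, but with total-count scaling it was -1.69 (adjusted p = 0.0016, edgeR) and with no count filter -0.54 (adjusted p = 0.013, edgeR).

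Other named contigs lower in fat body belonged to no common list. Sestrin-3, an inhibitor of TOR signalling induced by stress, held 3.52, 7.6 and 13.2 CPM in fat bodies and 50.9, 91.3 and 109 CPM in brains, a difference of -3.42 ± 0.31 (adjusted p = 2.4e-05, edgeR). Protein lethal(2)essential for life-like, a small heat shock protein of Drosophila, was lower in fat body at -3.78 ± 0.59, with 0.638 to 10.8 CPM in fat bodies and 22.5 to 75.2 CPM in brains. The list for chaperones and heat shock proteins, which the word pattern did not place it in, had 7 of 11 tested contigs higher in fat body and 0 lower with TMM scaling. Of all described contigs 58% were higher and 14.4% lower. GRAM domain-containing protein 3-like was lower at -3.13 ± 0.77, but in queen O-796 the tissues were almost level, at 14.7 CPM in fat body and 15.1 CPM in brain. A disintegrin and metalloproteinase with thrombospondin motifs 7-like, a secreted matrix protease, was lower at -3.25 ± 0.90, and here 1 fat body, of queen O-829, reached 33.3 CPM against 35.3 CPM in its brain. Without the queen block the difference of this ADAMTS contig was -1.71 and not past the threshold (adjusted p = 0.12, edgeR). Leukotriene A-4 hydrolase, an aminopeptidase, held 14.5 to 22.4 CPM in fat bodies and 67.9 to 99.1 CPM in brains.

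**Figure D3:**
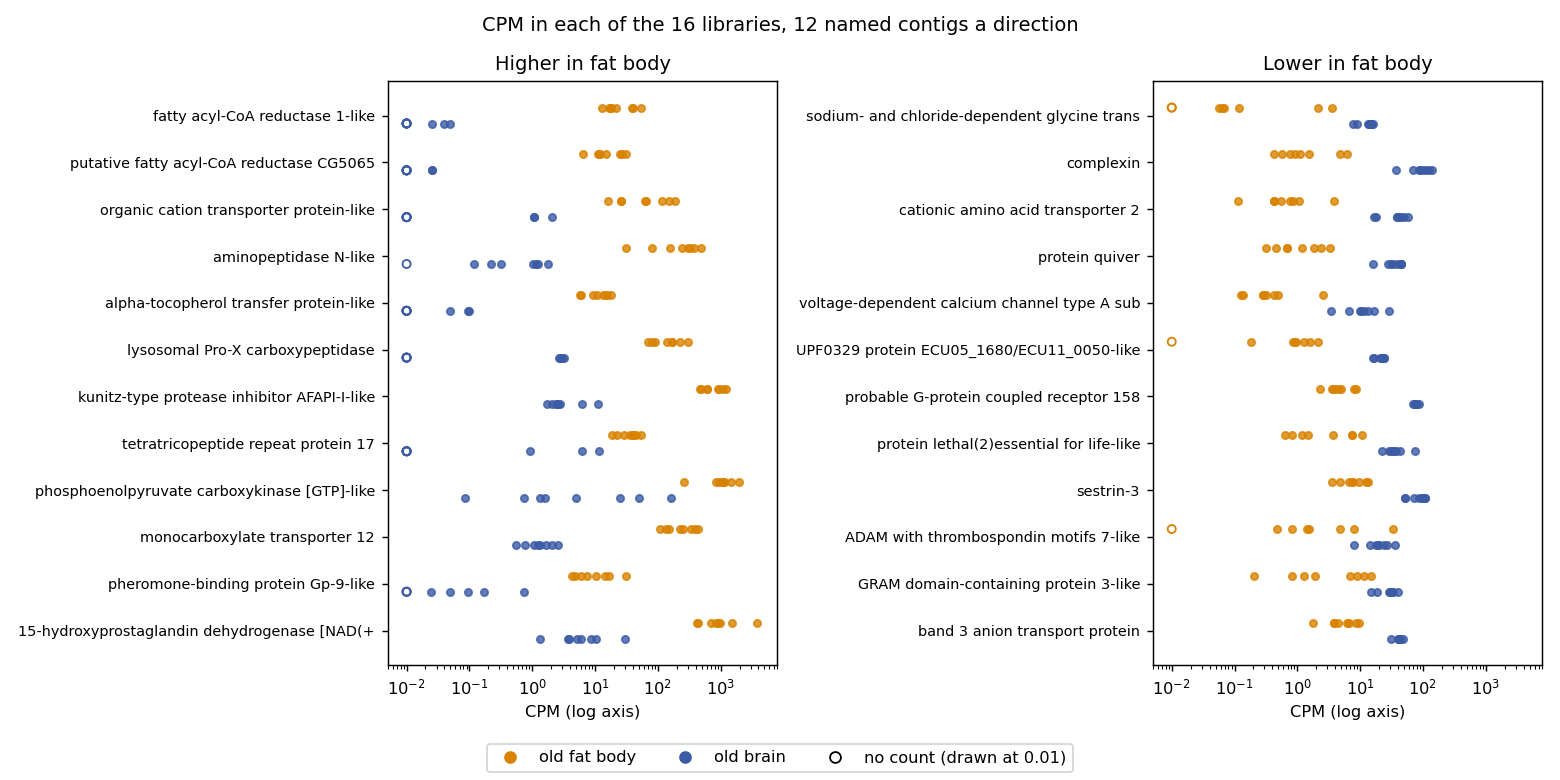
CPM on a log axis in each of the 16 libraries for the 12 named contigs with the largest log2 difference in each direction; fat bodies are drawn above brains, and open circles mark libraries with no count. The 12 contigs on the left do not overlap between tissues, and of the 12 on the right 1, a disintegrin and metalloproteinase, does.

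Contigs for laminins and some other secreted proteins were higher in fat body. Laminin subunits alpha, beta-1 and gamma-1, the trimer that lines the basement membrane around the fat body, were each higher, by 4.60 ± 0.25, 4.43 ± 0.22 and 4.20 ± 0.20 log2 units. Laminin subunit gamma-1 held 351, 553 and 913 CPM in fat bodies and 17.5, 29.8 and 61.6 CPM in brains. Collagen alpha-1(IV), the network collagen of basement membranes, held 2.41 to 33.5 CPM in fat bodies and 7.23 to 15.2 CPM in brains and was not past the threshold (0.23 ± 0.43, adjusted p = 0.67, edgeR). Semaphorin-5B, a guidance protein with thrombospondin repeats, held 1537, 2265 and 3889 CPM in fat bodies and 23.1, 31.6 and 46.7 CPM in brains, a difference of 6.17 ± 0.22 (adjusted p = 8.6e-07, edgeR). Adhesive plaque matrix protein 2-like averaged 108 CPM in fat bodies and 3.33 CPM in brains, a difference of 5.07 ± 0.32. In the list for the matrix 5 of 11 tested contigs were higher, the 3 laminins, semaphorin-5B and the adhesive plaque protein. Lower were 2, both contigs of the ADAMTS 7-like protease, and the median of 0.23 became -1.19 under total-count scaling. The word matrix also caught nuclear proteins, neither past the threshold. These were a SWI/SNF-related regulator of chromatin, at 0.01 ± 0.15, and serine/arginine repetitive matrix protein 2, at -0.11 ± 0.12. The median is therefore that of the matched contigs and not of matrix proteins alone. In the list for axon guidance and adhesion 5 of 8 were higher, most of them leucine-rich repeat proteins, and 2 were lower, among them complexin, which the pattern for plexin also caught. Beside both lists, 58% of all described contigs were higher and 14.4% lower.

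Contigs for ribosomal proteins were nearly all higher in fat body with TMM scaling. Of 91 described contigs for ribosomal proteins 26 passed the count filter, and 25 of these were higher and 0 lower, with a median of 1.90 that was 0.48 under total-count scaling. 60S ribosomal protein L13 held 851, 1186 and 1518 CPM in fat bodies and 164, 219 and 327 CPM in brains, a difference of 2.42 ± 0.19, and 40S ribosomal protein S5 differed by 2.02 ± 0.19. Of 11 tested contigs in the list for translation 10 were higher and 0 lower, with a median of 1.0 that became -0.42 under total-count scaling. This list led with polyadenylate-binding protein 4-like at 2.76 ± 0.22 and eukaryotic initiation factor 4A-I at 1.89 ± 0.17, and it also held 4 transcription factors caught by the words for initiation and elongation. For the secretory pathway 6 of 11 were higher and 0 lower (median 0.62, or -0.80 under total-count scaling), and golgin subfamily A member 2, which tethers vesicles at the Golgi, was higher by 2.12 ± 0.18. Proteasome and ubiquitin contigs were higher in 14 of 24, close to the 58% of all described contigs, and lower in 4 (median 0.98, or -0.44 under total-count scaling), with proteasome subunit beta type-5 at 1.96 ± 0.18 and ubiquitin carboxyl-terminal hydrolase 1 at -0.90 ± 0.12. Chaperones were higher in 7 of 11 and lower in 0 (median 1.14, or -0.28 under total-count scaling). For the secretory pathway and for chaperones, too, the share higher was close to the 58% of all described contigs.

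Among lists of nuclear genes, chromatin had similar counts in both directions. Its contigs were higher in 8 of 19 and lower in 6, with a median of 0.01, or -1.41 under total-count scaling. Lysine-specific histone demethylase 1 homolog 3-like was higher by 2.52 ± 0.26 and lysine-specific demethylase 7A-like was lower at -1.37 ± 0.30, with overlap. Contigs for RNA processing were higher in 13 of 22, close to the 58% of all described contigs, and lower in 2, and U4/U6.U5 small nuclear ribonucleoprotein 27 kDa protein, a part of the spliceosome, was lower at -1.97 ± 0.15 with 12 to 21.1 CPM in fat bodies and 53.5 to 72.4 CPM in brains. For transcription 11 of 21 were higher and 3 lower, close to the shares of all described contigs (58% higher, 14.4% lower). DNA-directed RNA polymerase I subunit RPA1, which makes ribosomal RNA, was higher by 2.63 ± 0.16. The median of RNA processing was 0.57, or -0.85 under total-count scaling, and that of transcription 0.42, or -1.0 under total-count scaling. Krueppel homolog 1-like, the early response factor to juvenile hormone in insects, held 163 to 238 CPM in fat bodies and 71.6 to 126 CPM in brains, a difference of 1.08 ± 0.14 that became -0.34 under total-count scaling. Forkhead box protein K1 was lower at -0.91 ± 0.15.

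**Figure D4:**
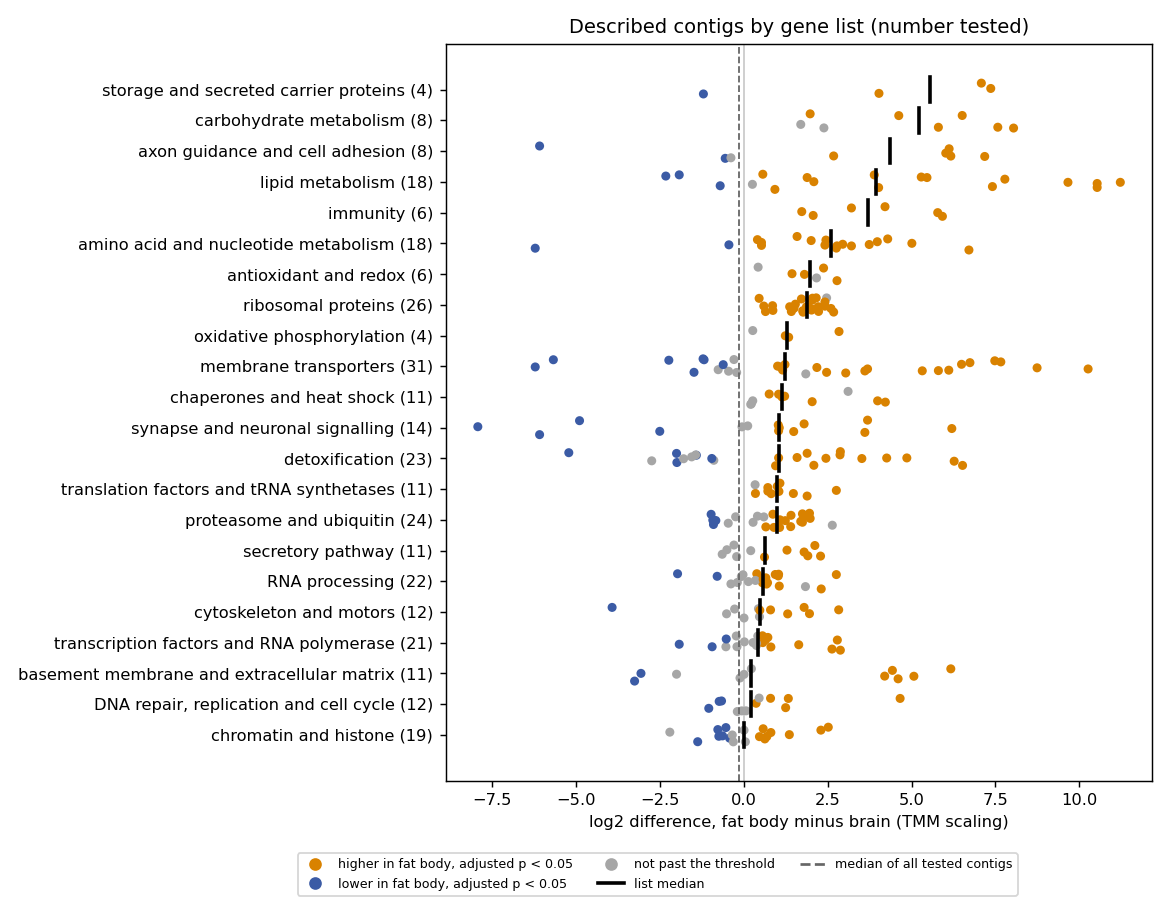
Log2 difference of fat body minus brain for each tested described contig, by gene list, with the number of tested contigs after each name; black bars are list medians and the dashed line is the median of all tested contigs at -0.15. The lists of storage, sugar, axon guidance and lipid genes have the highest medians, 5.56, 5.21, 4.35 and 3.95, with TMM scaling. The medians of the chromatin, DNA and matrix lists lie near 0. Contigs of the matrix list, which also holds nuclear proteins caught by its name, run from -3.25 to 6.17.

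Several marker lists of other cell types could be read in few contigs only. The list for gut and Malpighian tubule had 5 tested contigs, 4 higher and 1 lower, beside 58% higher and 14.4% lower among all described contigs. The lower one was the protease inhibitor antichymotrypsin-2-like, at -1.20 ± 0.18, which the word chymotrypsin also caught. The summed level of this list over 7 described contigs was 241 to 2748 CPM in fat bodies against 19.8 to 31.1 CPM in brains. Its members higher in fat body were contigs of aminopeptidase N-like, with 30.7 to 496 CPM in fat bodies and 0 to 1.81 CPM in brains for the more abundant of them, and of maltase 2-like. The single tested muscle marker, tropomyosin-1, was not past the threshold at -0.51 ± 0.31, and the summed level of both muscle markers was 1.26 to 7.88 CPM in fat bodies against 2.93 to 12.1 CPM in brains. The 3 neuron markers summed to 87.9 to 175 CPM in fat bodies and 136 to 256 CPM in brains, nearly all of it neuroligin in fat bodies. No germline marker and no photoreceptor marker could be tested. The part of other cell types in the dissected tissues was not tested, and in whole tissue a different number of cells of a type and a different amount of RNA per cell cannot be told apart.

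Old and young queens were compared in the same terms. The tissue difference of old queens minus that of young queens was tested over all 32 libraries with a queen block, and 2 of 48253 contigs (0.00414%) were past the threshold, while 3369 had an unadjusted p under 0.05. Uncharacterized protein LOC108756522 averaged 251 CPM in old fat bodies and 36.1 CPM in old brains, and 42.4 CPM in young fat bodies and 34.1 CPM in young brains. All 8 old fat bodies, at 200 to 323 CPM, lay above all 8 young fat bodies, at 25.4 to 70 CPM, and the brains were level. Its tissue difference was larger in old queens by 2.55 ± 0.22 log2 units (adjusted p = 0.00015, edgeR). Ras-related protein Rab-32, a small GTPase of lysosome-related organelles, went the other way. It averaged 10.9 CPM in old fat bodies and 5.03 CPM in old brains, and 64.2 CPM in young fat bodies and 6.75 CPM in young brains, a change of -2.09 ± 0.29 in the tissue difference (adjusted p = 0.037, edgeR). Both contigs come from the authors' age table for the fat body, so their difference between old and young fat bodies was a condition of their having a description and is not independent evidence. The uncharacterized protein was past the threshold with each old queen left out in turn. Rab-32 was not past it without any 1 of queens O-189, O-269, O-469, O-603, O-796 and O-829 (adjusted p = 0.0532 to 0.113, edgeR), and was past it without O-426 or O-482. Other tools called more contigs, 78 with limma-voom and 1095 with DESeq2, and edgeR without the queen block called 109. Leaving out 1 old queen gave 36 contigs without queen O-426, 4 without queen O-482 and 1, the uncharacterized protein, in each of the 6 other cases.

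**Figure D5:**
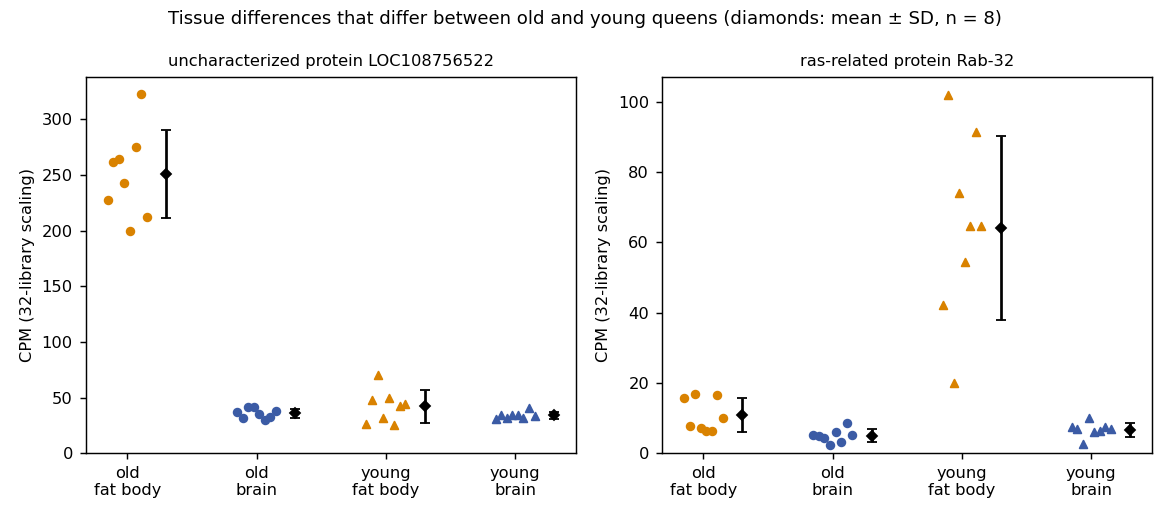
CPM in old fat body, old brain, young fat body and young brain for the 2 contigs whose tissue difference differed between old and young queens, scaled over 32 libraries; points are libraries, and diamonds with bars are mean ± SD (n = 8). The uncharacterized protein is high in old fat bodies alone and Rab-32 is high in young fat bodies.

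The next contigs by this test missed the threshold. Major facilitator superfamily domain-containing protein 1-like, of a transporter family, came closest, with an adjusted p of 0.0502 (edgeR) and a change of 1.38 ± 0.20. It averaged 145 CPM in old fat bodies and 68 CPM in old brains, and 54.4 CPM in young fat bodies and 68.5 CPM in young brains. Semaphorin-5B had an adjusted p of 0.057 (edgeR), with 2259 CPM in old fat bodies and 35.3 CPM in old brains, and 415 CPM in young fat bodies and 29.8 CPM in young brains. Purine nucleoside phosphorylase, also at 0.057, averaged 173 CPM in old fat bodies and 34.2 CPM in old brains, and 11.4 CPM in young fat bodies and 52 CPM in young brains. The elongase of very long chain fatty acids, at 0.057 as well, averaged 6.37 CPM in old fat bodies and 20.6 CPM in old brains, and 42.6 CPM in young fat bodies and 21 CPM in young brains. Of the 107 named contigs tested for this term, 1 was past the threshold, Rab-32. For the other contigs described here nothing in this test sets the tissue difference of old queens apart from that of young queens, and a miss of the threshold does not show that the differences are equal. The concentration of counts can be set side by side without a test, with the 100 most abundant contigs holding 45.1% to 56.5% of counts in fat bodies of old queens and 17.2% to 23.2% in their brains, and 37.1% to 50.6% in young fat bodies and 20% to 23.7% in young brains.

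Contigs of a shared description or component did not always move together. Of 45 descriptions with at least 2 tested contigs, 22 had all contigs past the threshold in the same direction and 4 had contigs in both directions. Dynamin, the GTPase that pinches off vesicles, had a contig with 8.7 to 32.1 CPM in fat bodies and 0 to 6.95 CPM in brains and another with 1.89 to 9.11 CPM in fat bodies and 9.01 to 19.1 CPM in brains. Their differences were 3.94 ± 0.79 (adjusted p = 0.002, edgeR) and -1.47 ± 0.24 (adjusted p = 0.00059, edgeR), and both belong to the same assembly component. Among 5741 components with 2 or more tested contigs, 772 had contigs past the threshold in both directions. Reads shared between such contigs can be divided by the counting, so single contigs of a component are less certain than their sum. With counts summed per component 23044 components were tested, 7524 higher and 8228 lower in fat body.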

How the data were processed

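RNA was sequenced from brain and fat body of single queens. The deposited count table holds whole numbers per assembled contig, unscaled, per the file headers. Per the submitters' processing notes, RSEM 1.3.0 was among the tools, with Bowtie, Bowtie2, DESeq2 1.2.10, Trimmomatic 0.36 and FastQC 0.11.5. Since RSEM shares reads between similar contigs, the counts may be rounded estimates. The assembler and database are not given in the sources used here. The authors' own comparisons are deposited as well, with log2 fold changes and adjusted p-values, per the file headers. In the table for old queens a positive log2 goes with higher counts in the brain for 22705 of 22707 contigs, and a negative one with higher counts in the fat body for 15473 of 15473, opposite to the names of its direction sheets. Direction was therefore taken from the counts.

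Counts were tested with edgeR 4.0.16 (R 4.3.3, limma 3.58.1): TMM scaling, filterByExpr (minimum count 10, minimum total 15), quasi-likelihood F test with tissue and queen block, Benjamini-Hochberg adjustment, threshold 0.05. DESeq2 1.42.0 and limma-voom were alternatives. The code was tested on simulated data. The queen block rests on the labels, which give both tissues of a queen the same number. After the tissue means were removed, libraries of the same queen correlated at 0.347 to 0.422, and those of different queens at -0.113 to -0.000443. Within-queen differences used log2 CPM with a prior count of 2. CPM per library used TMM effective library sizes.

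Contigs were named by a rule: the 12 largest differences in each direction with the same sign in all 8 queens and at least 10 CPM in the higher tissue, the 8 most abundant per tissue, the 2 smallest adjusted p-values per direction in each of 25 gene lists and 10 marker lists, the 6 smallest per direction in the test of old minus young, transferrin, and at most 2 contigs without a description per direction. Other list members were named after their values were seen. Members and lists were chosen with earlier results of these data known. The lists are word patterns on the descriptions, and no set test was run. Alternatives were other scalings, filters, tools and left-out queens, and the 1 without queens O-482, O-603 and O-796 was chosen after seeing the data. No sequence is in the files used here.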

Additional observations from a re-analysis of the deposited data

Results flagged for a closer look

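For each named contig and library measure the 8 libraries of a tissue were checked for a single library far from the rest, and chance alone marks about 1 in 20 such groups. With 108 named contigs checked in each tissue, a number of flags near that listed below can come from chance alone. No single value listed is therefore evidence on its own that a queen differed. In fat bodies, phosphoenolpyruvate carboxykinase was lowest in queen O-426, at 265 CPM against 847 to 1943 CPM in the others. The calcium channel type A subunit was highest in queen O-482, at 2.57 CPM against 0.127 to 0.489 CPM. Icarapin-like was highest in queen O-603, at 11388 CPM against 4152 to 6008 CPM. Forkhead box protein K1 was lowest in queen O-469, at 50.2 CPM against 81.7 to 117 CPM. The neuronal acetylcholine receptor subunit was found in queen O-269 alone, at 0.629 CPM. The number of contigs detected at equal depth was highest in queen O-482, at 80711 against 53263 to 61184.

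In brains, 3 contigs were lowest in queen O-603: protein quiver at 16.2 CPM against 28.2 to 45.1 CPM, maltase 2-like at 0 CPM against 3.95 to 9.69 CPM, and the undescribed TR76513c5_g1_i1 at 8279 CPM against 12929 to 17973 CPM. In queen O-796 the band 3 anion transport protein was lowest, at 30.5 CPM against 40 to 47.3 CPM, and the trehalose transporter Tret1-2 highest, at 13 CPM against 4.02 to 6.47 CPM. In queen O-189 antichymotrypsin-2-like was lowest, at 12.1 CPM against 16.1 to 18.2 CPM, and lysosomal alpha-glucosidase-like highest, at 54.2 CPM against 28.4 to 38 CPM.

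The tissue difference of old queens differed from that of young queens, in the test over 32 libraries, by 2.55 log2 units for uncharacterized protein LOC108756522 and by -2.09 for Rab-32.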

How the results depend on the processing

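The split into higher and lower moved most with scaling. With total counts 3635 contigs were higher and 21188 lower in fat body, and with RLE scaling 8013 and 11900. Total counts also turned 9 named contigs that TMM put higher in fat body: cytochrome c oxidase subunit 4 (-0.08), ATP synthase subunit s (-0.18), T-complex protein 1 zeta (-0.20), Krueppel homolog 1-like (-0.34), DDX47 (-0.39), cyclin-L1 (-0.09), major facilitator superfamily domain-containing protein 1-like (-0.19), Rab-32 (-0.13) and Tim23 (-0.84). They turned 15 list medians: detoxification (-0.38), transporters (-0.19), translation (-0.42), secretory pathway (-0.80), matrix (-1.19), oxidative phosphorylation (-0.13), chaperones (-0.28), proteasome (-0.44), synapse (-0.38), clock and hormone (-1.33), chromatin (-1.41), RNA processing (-0.85), transcription (-1.0), DNA repair (-1.20) and cytoskeleton (-0.94). Medians near 0 also changed sign elsewhere. With RLE scaling and DESeq2 clock and hormone gave -0.10 and chromatin -0.17. With no count filter matrix gave -0.05, clock and hormone -0.19, chromatin -0.26 and DNA repair -0.06, and without queens O-482, O-603 and O-796 chromatin gave -0.08. Leaving out 1 queen gave chromatin -0.11 to 0.06, clock and hormone -0.02 to 0.13 and transposable elements -0.16 to 0.02. The cause of these changes was not tested. With no count filter 30012 contigs of 216843 were past the threshold, 18363 of them lower, and a fit over all 32 libraries gave 16845 lower, more contigs being tested in both. Without the queen block the paired libraries gave 9035 contigs higher and 10265 lower, the transposable element list a median of 0.05, and the old minus young test 109 contigs; limma-voom gave 78 and DESeq2 1095 in that test. Leaving out 1 queen gave 18525 to 19757 contigs, 7989 to 8808 higher and 10112 to 11074 lower, a difference of 31.8 to 33.7 percentage points in the share of the 100 most abundant contigs, and 1 to 36 contigs in the old minus young test. Of the named contigs, 1 fell below the threshold without the block, 0 changed call with limma-voom, and 1 more, meiosis arrest female protein 1 homolog, passed it with DESeq2 and with RLE and total-count scaling. Contigs under about 10 counts are below the filter, and folds against tissues with few counts are limited by depth.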

Other observations

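Described contigs of smaller groups also differed between the tissues of old queens. The gonadotropin-releasing hormone II receptor, whose insect relatives bind the adipokinetic hormone that releases stored fuel from the fat body, had 2 tested contigs. The more abundant of them held 23.7, 39.3 and 138 CPM in fat bodies and 0.205, 0.899 and 8.96 CPM in brains, a difference of 5.61 ± 0.72 (adjusted p = 0.00016, edgeR, chosen after its values were seen). Of 6 tested contigs for antioxidant and redox genes 4 were higher and 0 lower, with a median of 1.99, and peroxidase-like was higher by 2.78 ± 0.22. For oxidative phosphorylation 3 of 4 tested contigs were higher and 0 lower, with a median of 1.29, or -0.13 under total-count scaling. Cytoskeleton and motor contigs were higher in 6 of 12 and lower in 1, with dynactin subunit 4, a part of the dynein motor complex, higher by 1.96 ± 0.18 and dynein light chain 1 lower at -3.92 ± 0.81. Beside the lists of this paragraph, 58% of all described contigs were higher and 14.4% lower. For DNA repair, replication and cell cycle 5 of 12 were higher and 3 lower, for clock and hormone signalling 1 of 2 was higher and 1 lower, and of the 2 tested contigs matched for transposable elements and viruses neither was past the threshold. Those last contigs are an inhibitor of apoptosis and a retrovirus receptor, not transposable elements. No contig of the chemosensory and visual list was tested.

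The source of a description moved with the direction. Of 649 tested contigs described from the authors' fat body age table alone 393 were higher and 81 lower in fat body, and of 50 described from the brain age table alone 11 were higher and 20 lower. Of 33871 tested contigs with no description 8593 were higher and 10714 lower. Of 23 tested contigs whose best hit lay outside Hymenoptera 8 were higher and 1 lower.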
